A study of Mus musculus with 2 samples.

Results

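The imprinted growth genes described here are 10 genes chosen by symbol from the 27775 features of the deposited count tables: Igf2, H19, Dlk1, Meg3, Peg3, Grb10, Cdkn1c, Ndn, Mest and Plagl1. All 10 symbols were found in both libraries. The study made 1 droplet single-cell RNA library from wild-type CD1 mouse lacrimal glands at postnatal day 4 (P4) and 1 from wild-type glands at embryonic day 16 (E16). The lacrimal gland secretes tears. The glands of a stage were pooled and digested with Liberase TM and DNase. How many animals went into a pool is not stated. With 1 library for each stage there is no replicate, so no test between stages was possible, and the intervals below cover counting error only. Stage and library cannot be told apart.

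Imprinted genes are transcribed mainly from the copy inherited from 1 parent. Several of them control how much a fetus grows, and the expression of many falls in most organs after birth. Igf2, Dlk1, Peg3, Ndn, Mest and Plagl1 are known in the mouse as paternally expressed, and H19, Meg3 and Cdkn1c as maternally expressed. Grb10 is expressed from the maternal copy in most tissues and from the paternal copy in neurons. The counts here do not separate the parental copies.

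Igf2 encodes a growth factor that acts through the IGF1 receptor. H19, its neighbour, encodes a long noncoding RNA. Dlk1 encodes a membrane protein with EGF-like repeats that restrains fat cell differentiation, and its neighbour Meg3 encodes a long noncoding RNA. Grb10 encodes an adaptor that dampens insulin and IGF signalling. Cdkn1c encodes an inhibitor of cyclin-dependent kinases and limits cell division. Ndn encodes a MAGE family protein with growth-suppressing activity. Mest encodes a protein of the alpha/beta-hydrolase family. Peg3 and Plagl1 encode zinc finger proteins.

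In the GENCODE M21 annotation of GRCm38, 5 members lie on chromosome 7. They are Peg3 at chr7:6703892-6730431 on the minus strand, Ndn at chr7:62346569-62350262 on the plus strand, H19 at chr7:142575529-142578143, Igf2 at chr7:142650766-142666816 and Cdkn1c at chr7:143458339-143461050, the last 3 on the minus strand. Dlk1 at chr12:109452823-109463336 and Meg3 at chr12:109541001-109571726 are neighbours on the plus strand of chromosome 12. Mest lies at chr6:30723547-30748465 on the plus strand, Plagl1 at chr10:13060504-13131694 on the plus strand and Grb10 at chr11:11930508-12038683 on the minus strand. H19 and Meg3 are annotated as long noncoding RNA genes and the other 8 as protein-coding genes. Overlapping annotated genes held few UMIs (unique molecular identifiers, each counting 1 captured RNA molecule): 3 from P4 and 3 from E16 for Igf2os, which overlaps Igf2, and 33 from P4 and 42 from E16 for Copg2, which overlaps Mest.

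The genes Igf2, H19, Meg3 and Mest hold 9 mature microRNAs in the RefSeq set for GRCm38.p6. The 6 of Igf2, H19 and Mest are shown, and the stage ratios of these 3 host genes are given below. The libraries count polyadenylated host RNA and do not measure the mature microRNAs. Bases 2 to 8, the seed, are in capitals, and the 9 seeds are all different.
mmu-miR-483-5p (in Igf2, chr7:142654968-142654989, minus strand): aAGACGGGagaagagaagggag
mmu-miR-483-3p (in Igf2, chr7:142654932-142654952, minus strand): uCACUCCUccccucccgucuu
mmu-miR-675-5p (in H19, chr7:142577112-142577133, minus strand): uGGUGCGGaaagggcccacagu
mmu-miR-675-3p (in H19, chr7:142577078-142577099, minus strand): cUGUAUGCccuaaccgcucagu
mmu-miR-335-5p (in Mest, chr6:30741314-30741336, plus strand): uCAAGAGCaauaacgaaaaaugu
mmu-miR-335-3p (in Mest, chr6:30741354-30741375, plus strand): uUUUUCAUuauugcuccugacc

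RefSeq start windows, 250 bases before to 50 after a start, were found for 8 members (15 windows). The windows below belong to 3 genes whose summed levels were lower in P4 than in E16 endothelial-like cells, for Grb10 and Mest largely through single E16 cells. For each gene 1 window that holds GGGCGG is shown. Other windows of these genes, some without GGGCGG, are not shown. Capitals mark GGGCGG on either strand, the letters of a GC box, which 8 of the 15 windows and 35.7% of the 32851 windows of all genes hold. The 8 include Mest windows that overlap almost fully and so are not independent. The windows of the members held between 1 and 45 CpG dinucleotides with a median of 13, against a median of 7 over all genes. A letter match is a description and shows no binding. The palindrome GGGGCCCC was present in 1 member window, that of Peg3, and in 1.08% of all windows.
Igf2 (chr7:142657447-142657746, minus strand, GRCm38.p6, 7 CpG): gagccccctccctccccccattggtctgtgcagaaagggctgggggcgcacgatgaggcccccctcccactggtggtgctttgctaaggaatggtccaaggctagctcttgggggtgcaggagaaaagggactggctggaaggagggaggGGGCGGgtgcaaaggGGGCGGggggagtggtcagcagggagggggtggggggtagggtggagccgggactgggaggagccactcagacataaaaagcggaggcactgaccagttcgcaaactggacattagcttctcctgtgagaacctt
Grb10 (chr11:12037371-12037670, minus strand, GRCm38.p6, 45 CpG): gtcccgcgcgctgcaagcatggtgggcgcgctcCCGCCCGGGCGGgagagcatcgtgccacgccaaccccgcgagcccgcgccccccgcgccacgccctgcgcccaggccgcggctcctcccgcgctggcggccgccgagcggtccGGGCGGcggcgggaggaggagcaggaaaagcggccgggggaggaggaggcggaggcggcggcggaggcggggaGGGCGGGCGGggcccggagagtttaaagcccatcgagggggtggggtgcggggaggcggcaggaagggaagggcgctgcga
Mest (chr6:30737800-30738099, plus strand, GRCm38.p6, 17 CpG): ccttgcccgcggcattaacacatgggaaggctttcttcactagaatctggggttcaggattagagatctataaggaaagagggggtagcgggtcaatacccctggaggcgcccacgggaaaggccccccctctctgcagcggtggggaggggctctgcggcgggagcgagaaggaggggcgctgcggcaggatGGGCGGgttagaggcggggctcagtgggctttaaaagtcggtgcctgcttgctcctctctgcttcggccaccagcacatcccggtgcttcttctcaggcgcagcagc

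The P4 library gave 406 barcodes with at least 200 detected genes and the E16 library 259, with medians of 3767 and 5802 UMIs, and no barcode was shared. The left-out barcodes were mostly haemoglobin reads, with a median of 95.7% haemoglobin UMIs in P4 and 95.9% in E16. Clusters were named from marker genes, with 48 imprinted genes, the members among them, kept out of the clustering. Mesenchyme-like cells numbered 177 in P4 and 98 in E16, epithelial-like cells 76 and 39, and endothelial-like cells 22 and 10. The other classes with at least 20 cells in a library were macrophage-like cells (49 in P4, 2 in E16) and erythroid-like cells (12 in P4, 25 in E16). A cluster of 22 P4 and 48 E16 cells, cluster 6, stayed unnamed, as its leading genes mixed epithelial (Krt14, Krt15, Trim29) and smooth muscle (Acta2) genes. In its E16 cells 15 of the 16 epithelial markers had a UMI. The epithelial-like class held 87 E16 cells with 500 genes per barcode, at Leiden resolution 0.5, with imprinted genes kept or with each library clustered alone. Its size depended on the clustering, and under other settings it may take in cluster 6. All 14 mesenchyme markers were detected in the mesenchyme-like cells of each library and all 10 endothelial markers in the endothelial-like cells. Fewer RNA molecules per cell and a smaller share of the RNA cannot be told apart in values scaled to the class total.

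Levels are given in CPM, the UMIs of a gene summed over the cells of a class and scaled to a class total of 1000000 UMIs. Summed over the members, the level was highest in mesenchyme-like cells of each library. Together the members held 21421 CPM (95% Poisson interval 21104 to 21742) of the P4 mesenchyme-like RNA and 23462 CPM (23088 to 23841) of the E16 mesenchyme-like RNA. In endothelial-like cells the same sum was 2861 CPM in P4 and 12563 CPM in E16, the last from 10 cells, of which 1 was rich in mesenchyme markers (described below). Smooth muscle-like cells had 4521 CPM in P4 (9 cells) and 6589 CPM in E16 (16 cells), and glial-like cells 4151 CPM in P4 (4 cells) and 2478 CPM in E16 (6 cells). In epithelial-like cells the sum was 855 CPM in P4 and 2203 CPM in E16. In blood-lineage classes, which are not expected to be rich in these RNAs, the sums varied. They were 304 CPM in P4 and 280 CPM in E16 erythroid-like cells, 390 CPM in 49 P4 macrophage-like cells, 1829 CPM in 9 E16 mast-like cells and 2631 CPM in 6 E16 dendritic or monocyte-like cells. The last 2 are close to the E16 epithelial-like sum, so low levels in small classes cannot be told apart from RNA of other cells. The mesenchyme-like class held between 68.4% (Peg3) and 96.1% (Dlk1) of a member's UMIs over all kept P4 cells, and between 50.1% (Grb10) and 92.6% (Dlk1) over all kept E16 cells. It was also the largest class, with 43.6% of the kept P4 cells and 37.8% of the kept E16 cells.

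**Figure D1:**
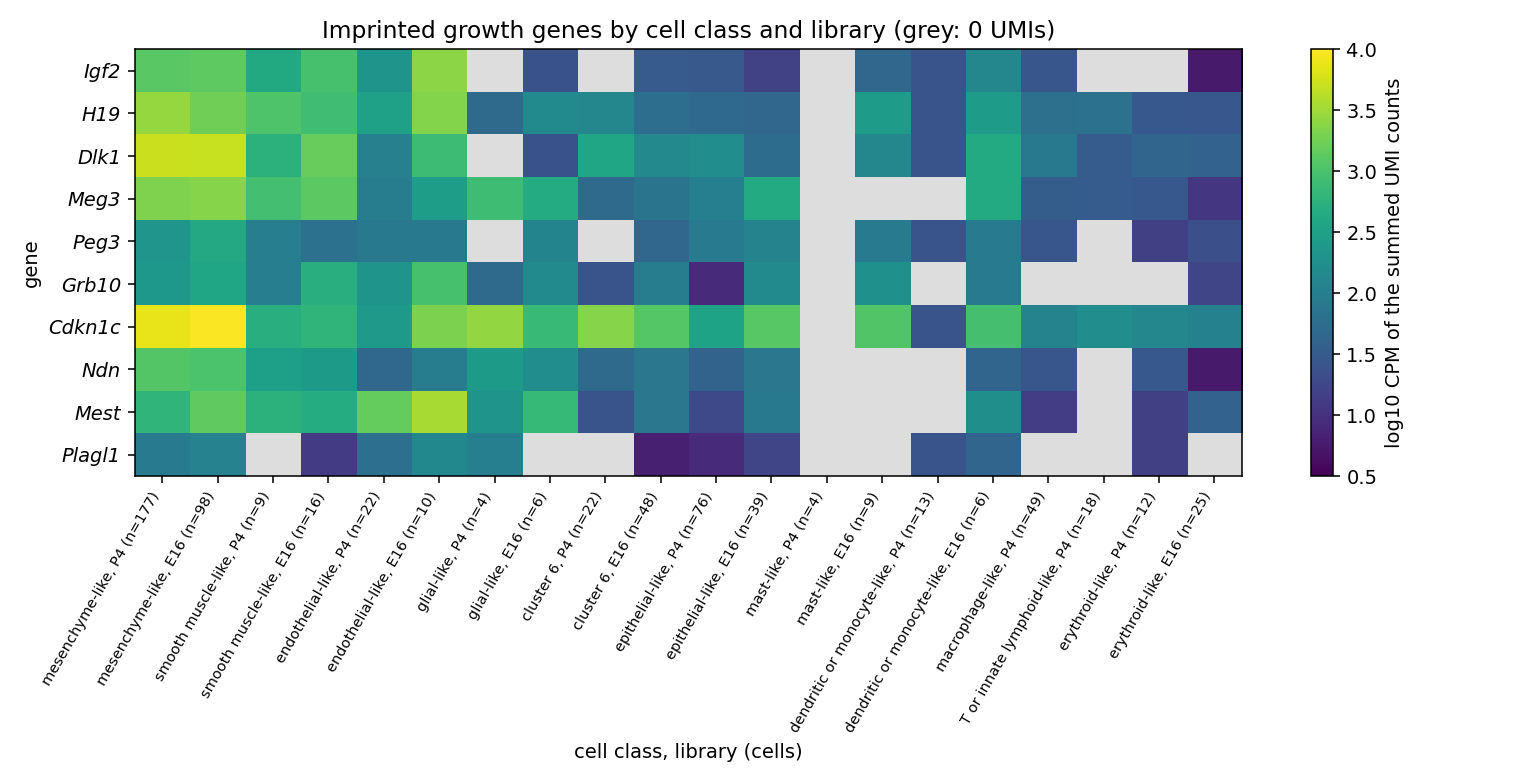
Level of each member (rows) in each cell class and library with at least 4 cells (columns, P4 left of E16, number of cells in brackets), as the log10 of CPM, with grey for 0 UMIs. The mesenchyme-like columns are bright for most members, and Mest, Igf2, H19 and Grb10 are bright in E16 endothelial-like cells.

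In P4, 7 of the 10 members were at least 2-fold higher in mesenchyme-like cells than in each of the 3 other named classes with at least 20 cells (endothelial-, epithelial- and macrophage-like), against 5.95% of 6315 genes. The 3 others were Grb10, Mest and Plagl1. In E16 all 10 were at least 2-fold higher in mesenchyme-like cells than in epithelial- and erythroid-like cells, against 18.3% of 6398 genes, but the 10 endothelial-like E16 cells were too few to enter that count. Among these named classes with at least 20 cells, the P4 mesenchyme-like Dlk1 level of 5209 CPM was 32.2 times the next, that of epithelial-like cells. Ndn at 1147 CPM was 24.2 times the endothelial-like level, and Cdkn1c at 7767 CPM was 22.7 times the epithelial-like level. Smaller or unnamed groups stood nearer, such as Dlk1 at 561 CPM in 9 smooth muscle-like cells and Cdkn1c at 2312 CPM in cluster 6. For Grb10 the P4 mesenchyme-like level of 234 CPM (202 to 270) and the endothelial-like level of 202 CPM (118 to 323) had overlapping intervals. Mest was the exception in the order of summed levels. It reached 1496 CPM (1246 to 1781) in P4 endothelial-like cells, above 615 CPM (562 to 671) in P4 mesenchyme-like cells. The median P4 cell had the other order, with 327 CPM in endothelial-like and 484 CPM in mesenchyme-like cells. A P4 endothelial-like cell held 43 of the 126 Mest UMIs of its class.

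Smooth muscle-like cells, in which the pericyte genes Rgs5 and Ndufa4l2 also led, stood next to the mesenchyme for several members. Their P4 levels, from 9 cells, were 1089 CPM of H19 (750 to 1530), 891 CPM of Meg3 (587 to 1296) and 561 CPM of Dlk1 (327 to 898). In the 16 E16 cells H19 was at 854 CPM (661 to 1087), Meg3 at 1333 CPM (1088 to 1617) and Dlk1 at 1515 CPM (1253 to 1815). Dlk1 was lower in P4 than in E16 smooth muscle-like cells, with a ratio of 0.370 (0.209 to 0.619), or 302 CPM in P4 without the P4 cell that held 9 of its 17 UMIs, and Igf2 had a ratio of 0.442 (0.225 to 0.802). The E16 level of Grb10 in these cells, 492 CPM (348 to 675), overlapped its E16 mesenchyme-like level of 359 CPM (314 to 408).

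Within the mesenchyme-like class, most cells carried several members at once. After each cell was thinned to 1342 UMIs, the median number of the 10 members with a UMI was 6 in 175 P4 cells and 7 in 96 E16 cells, and it was 0 in 12 P4 and in 25 E16 erythroid-like cells. Dlk1 was detected in 95.4% of thinned P4 cells (91.2 to 98.0) and 96.9% of thinned E16 cells (91.1 to 99.4), and Cdkn1c in 95.4% (91.2 to 98.0) and 95.8% (89.7 to 98.9). Before thinning the Dlk1 shares were 99.4% in P4 and 96.9% in E16, at medians of 4396 and 6110.5 UMIs per cell, and in erythroid-like cells they were 25% and 24%, at medians of 5439 and 6700 UMIs. Igf2 was found in 72.6% (65.3 to 79.0) of thinned P4 cells and 74.0% (64.0 to 82.4) of thinned E16 cells, so its UMIs were spread over most cells of the class. The P4 cell with most Igf2 held 60 of 1048 UMIs, and the E16 cell with most held 37 of 876. Mest was found in 52.0% (44.3 to 59.6) of thinned P4 cells and 74.0% (64.0 to 82.4) of thinned E16 cells. Among all 10 members, the cell with most UMIs never held over 7.37% of the P4 class total (Grb10) or 8.33% of the E16 class total (Plagl1).

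Over cells, the members went together only weakly. The Pearson correlations of log values of the 45 gene pairs had a median of 0.0449 over 175 thinned P4 cells and 0.114 over 96 thinned E16 cells. The highest P4 values were those of H19 with Dlk1 (0.380), Igf2 with H19 (0.379) and Dlk1 with Meg3 (0.350). In E16 the neighbours Igf2 and H19 had 0.136 and Dlk1 and Meg3 had 0.132, and Dlk1 with Cdkn1c had the highest value, 0.406. Mest had negative P4 values with Igf2 (-0.223), H19 (-0.206) and Meg3 (-0.161). All values share the library and come from sparse counts, so they are descriptions.

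The comparison of stages asks whether the members were lower after birth. In mesenchyme-like cells 1 of the 10, Mest, was 2-fold or more below its E16 level in P4, and none was 2-fold or more above it. Over all 5711 genes with at least 30 UMIs in the class, 13.6% were at least 2-fold lower and 6.93% at least 2-fold higher, so the members' counts are near the background. All 10 members passed the minimum of 30 UMIs in this class. Their median log2 ratio was -0.23, against -0.18 over the 5711 genes.

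Mest had 615 CPM in P4 and 1414 CPM in E16, a P4 over E16 ratio of 0.435 (exact 95% interval 0.389 to 0.486). Peg3 was close to the 2-fold limit, with 211 CPM in P4 and 409 CPM in E16 and a ratio of 0.515 (0.423 to 0.627), or 0.496 (0.405 to 0.605) without the P4 cell with most Peg3. Grb10 had a ratio of 0.653 (0.536 to 0.795). These 3 intervals lie below 1 and below the class median.

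The long noncoding RNA H19 stood on the other side, with 2754 CPM in P4 and 1736 CPM in E16 and a ratio of 1.59 (1.48 to 1.71). Its neighbour Igf2 had 1291 CPM in P4 and 1372 CPM in E16, a ratio of 0.941 (0.860 to 1.03). Dlk1 had 5209 CPM in P4 and 5137 CPM in E16, a ratio of 1.01 (0.969 to 1.06), and Meg3 had 0.900 (0.839 to 0.965). The intervals of the neighbours H19 and Igf2 did not overlap, and those of Dlk1 and Meg3 missed each other narrowly.

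Cdkn1c had 7767 CPM in P4 and 9580 CPM in E16, a ratio of 0.811 (0.783 to 0.840). Ndn had a ratio of 1.14 (1.03 to 1.26), or 1.09 (0.985 to 1.21) without the P4 cell that held 44 of its 931 UMIs, and Plagl1, with 74 UMIs in P4 and 72 in E16, a ratio of 0.809 (0.577 to 1.13). Epithelial markers summed to 136 CPM in P4 and 62.6 CPM in E16 mesenchyme-like cells, and endothelial markers to 70.2 CPM in P4 and 150 CPM in E16. The class's own 14 markers summed to 47173 CPM in P4 and 18968 CPM in E16, so the RNA of the class differed between the stages in other ways too.

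**Figure D2:**
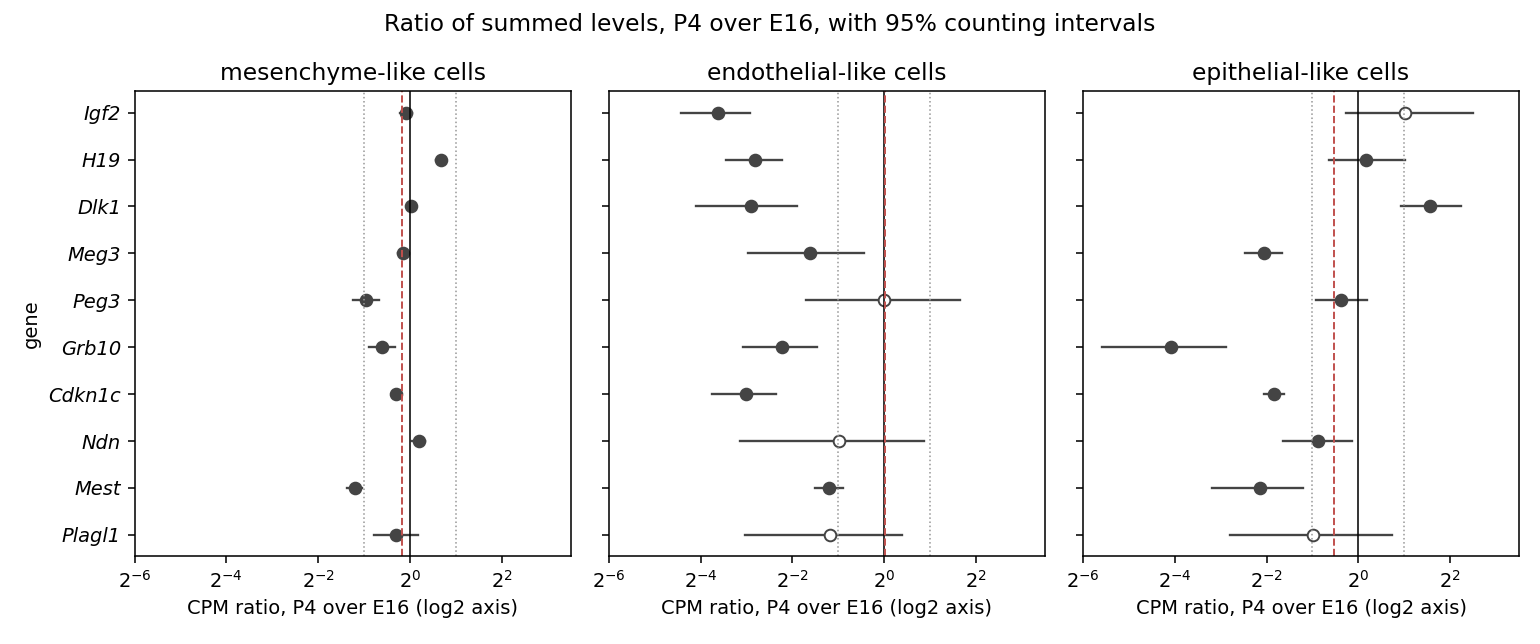
Ratio of the summed level in P4 over that in E16 for each member in 3 cell classes, on a log2 axis, with exact 95% counting intervals. Open points had fewer than 30 UMIs, the dashed red line is the median of all genes of the class, and dotted lines mark 2-fold. The endothelial-like ratios of 7 members with at least 30 UMIs lie below 0.5, as does the open point of Plagl1 (0.438). Those of Dlk1, Meg3, Grb10 and Mest rest largely on single E16 cells, and that of Cdkn1c moved with single E16 cells. Most mesenchyme-like ratios lie between 0.5 and 2.

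The class ratio joins cells that fell into different clusters at the 2 stages. P4 mesenchyme-like cells lay mainly in cluster 1 (76 cells, led by Kera, Dcn and Lum), cluster 7 (44 cells) and cluster 3 (42 cells), the last 2 led by Mfap5, Clec3b and Ly6a. E16 cells lay mainly in cluster 13 (62 cells, led by A230065H16Rik and Kera) and cluster 12 (19 cells). Clusters 3 and 7 held 3 and 4 E16 cells. Of the mesenchyme-like clusters, 1 and 13 had at least 8 cells from each library.

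Inside those clusters Igf2 was lower in P4. In cluster 1 it had 784 CPM in 76 P4 cells and 1680 CPM in 10 E16 cells, a ratio of 0.467 (0.353 to 0.625). In cluster 13 it had 594 CPM in 9 P4 cells and 1416 CPM in 62 E16 cells, a ratio of 0.420 (0.281 to 0.606). The P4 cells of cluster 3 had 2224 CPM (2015 to 2448) and those of cluster 7 had 1368 CPM (1230 to 1516), above the P4 cells of clusters 1 and 13.

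Peg3 was likewise lower in P4 in both clusters, with ratios of 0.316 (0.201 to 0.509) in cluster 1 and 0.380 (0.161 to 0.767) in cluster 13. Dlk1 had 0.455 (0.405 to 0.512) in cluster 1, or 0.679 (0.589 to 0.787) without the E16 cell that held 157 of 380 UMIs, and 0.811 (0.698 to 0.938) in cluster 13. The higher class level of H19 in P4 was not seen inside these clusters, where its ratios were 1.12 (0.868 to 1.46) and 0.611 (0.459 to 0.799). The P4 cells of clusters 3 and 7 had 3555 and 3565 CPM of H19. Mest had 0.434 (0.333 to 0.570) in cluster 1, but 1 of the 10 E16 cells held 56 of its 76 UMIs there, and without that cell the ratio was 1.30 (0.821 to 2.17). In cluster 13 it had 0.779 (0.589 to 1.01). The lower class level of Mest in P4 was thus not seen inside the shared clusters beyond counting error and single cells. Ndn was the member with a ratio above 1 whose interval excluded 1, at 1.55 (1.22 to 1.96) in cluster 13.

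**Figure D3:**
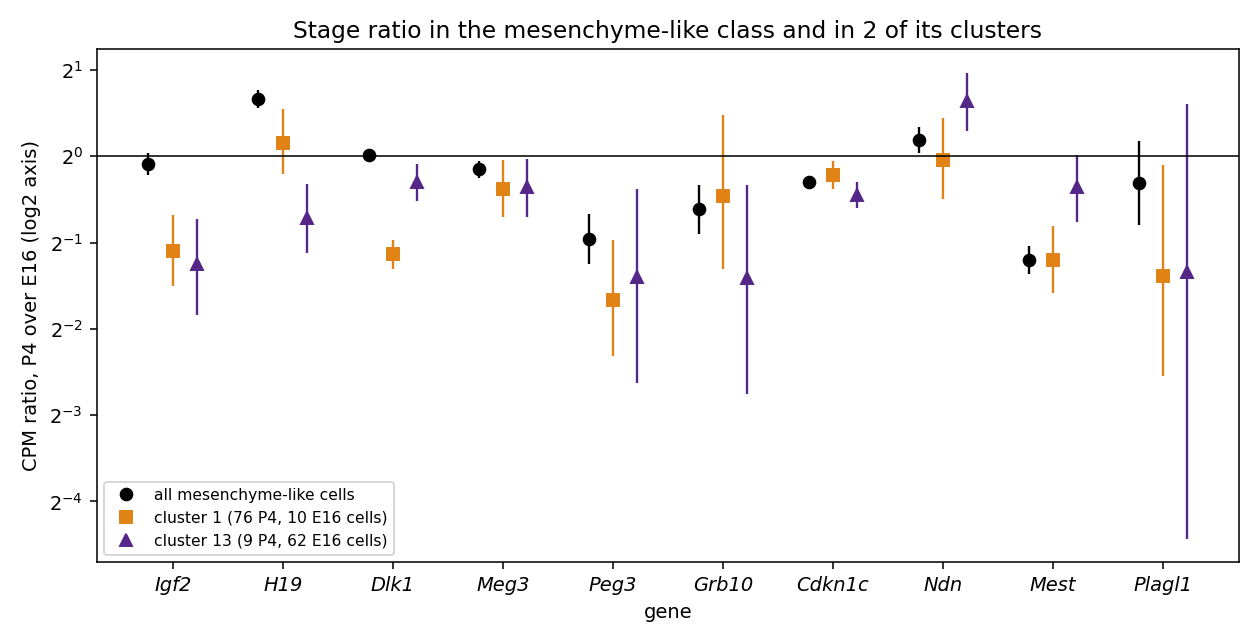
P4 over E16 ratio of each member on a log2 axis, with exact 95% counting intervals, in all mesenchyme-like cells and in 2 clusters that hold at least 8 cells of each library. The cluster ratios of Igf2 (0.467 and 0.420) lie below its class ratio of 0.941, and those of H19 lie below its class ratio of 1.59.

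Clustering the mesenchyme-like cells of each library alone, again without the 48 imprinted genes, gave 6 sub-clusters in P4 and 6 in E16. In P4, sub-cluster 2 (51 cells, led by Pi16 and Gap43) had the highest level of Igf2 (2124 CPM), H19 (3883 CPM), Dlk1 (6283 CPM) and Meg3 (2842 CPM). Its H19 interval (3646 to 4131 CPM) overlapped that of sub-cluster 6 (3374 to 4067 CPM). Sub-cluster 2 also had the lowest level of Cdkn1c (5914 CPM), Ndn (761 CPM) and Mest (237 CPM). Igf2 was 3.18-fold (2.44 to 4.21) and H19 2.71-fold (2.33 to 3.15) above the sub-cluster with the least. Mest was highest in sub-cluster 5 (41 cells, led by A230065H16Rik), at 1094 CPM, 4.62-fold (3.42 to 6.30) above sub-cluster 2. The interval of Mest in sub-cluster 5 (933 to 1275 CPM) overlapped that in sub-cluster 3 (641 to 1001 CPM). Mest was the 1 of 9 members with at least 100 UMIs to span 4-fold in P4, against 17.1% of 1429 genes.

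In E16, sub-cluster 6 (15 cells, led by Dpt and Clec3b) had the highest level of Igf2 (1916 CPM), H19 (2145 CPM), Dlk1 (9442 CPM), Meg3 (3120 CPM) and Peg3 (631 CPM). Of these, only Dlk1 had an interval apart from that of every other sub-cluster. The intervals of Igf2, H19, Meg3 and Peg3 overlapped that of another sub-cluster, for H19 1849 to 2476 CPM against 1764 to 2291 CPM in sub-cluster 3. Cdkn1c was highest in sub-cluster 4 (23 cells, led by Stmn2), at 14560 CPM, 2.16-fold (2.01 to 2.32) above sub-cluster 1, which was led by Hist1h1b and Ube2c. None of 9 members spanned 4-fold in E16, against 16.6% of 1227 genes. The sub-clusters were compared within a library and have 9 to 51 cells each.

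**Figure D4:**
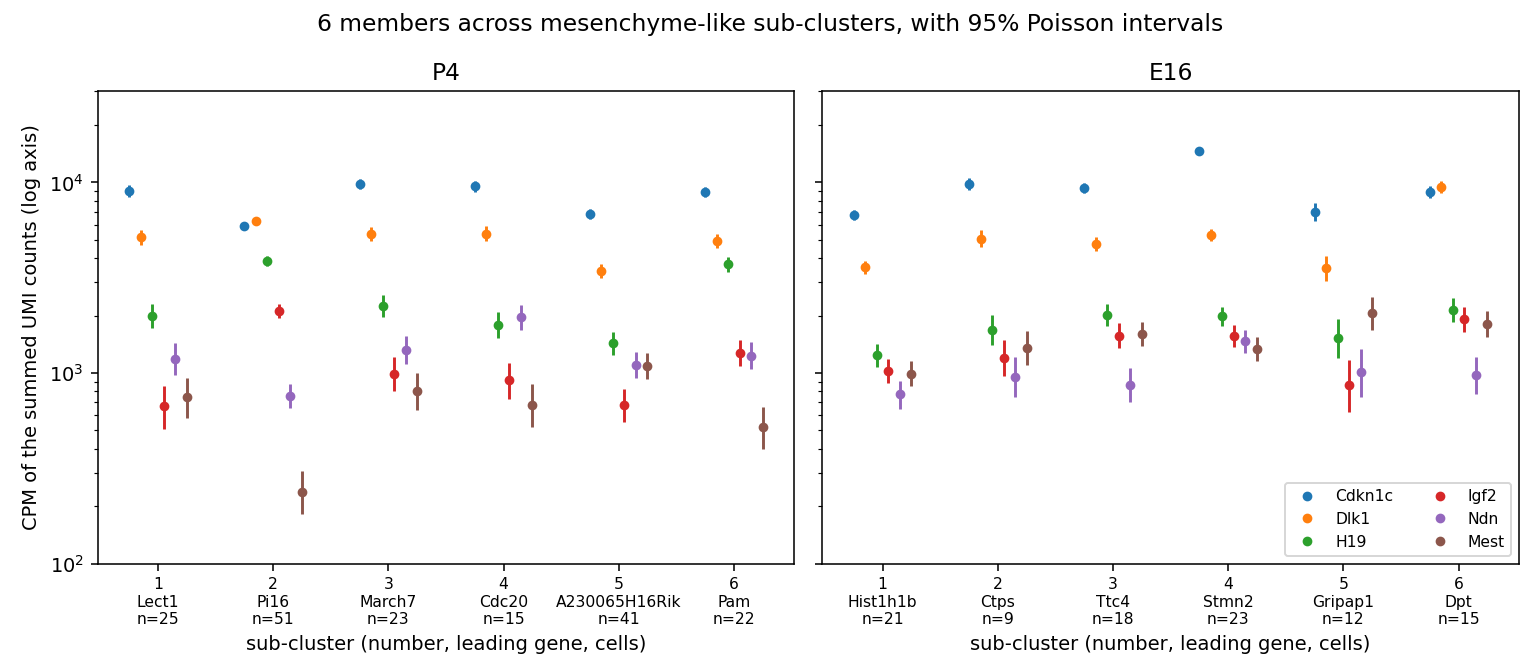
Level of 6 members (CPM, log axis, 95% Poisson intervals) in the 6 mesenchyme-like sub-clusters of P4 (left) and of E16 (right), named by number and leading gene. In the P4 sub-cluster led by Pi16, Igf2 (2124 CPM) is high and Mest (237 CPM) is low.

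Cdkn1c limits cell division, and its level was read in cells with UMIs of at least 3 of 25 G2/M genes after thinning. G2/M genes act late in the cell cycle, and a UMI of them does not prove division. In P4, 15 such cells had 8132 CPM of Cdkn1c (7548 to 8749) and the 160 other mesenchyme-like cells 7737 CPM (7535 to 7943), a ratio of 1.05 (0.971 to 1.14). In E16, 25 such cells had 7500 CPM (7133 to 7881) and the 71 others 10614 CPM (10307 to 10927), a ratio of 0.707 (0.667 to 0.749). Ndn had a ratio of 1.95 (1.65 to 2.30) in P4 and 0.662 (0.550 to 0.794) in E16, so its direction differed between the libraries. That difference was not tested. In P4 sub-cluster 4 (15 cells, led by Cdc20 and Birc5), 1 cell held 25% of the 176 Ndn UMIs. A single cell may thus carry part of the P4 value. Mest had 1.40 (1.08 to 1.80) in P4 and 0.645 (0.551 to 0.753) in E16. H19 was lower in such cells in both libraries, with 0.597 (0.503 to 0.705) in P4 and 0.733 (0.639 to 0.839) in E16.

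In endothelial-like cells Igf2, H19 and Cdkn1c were lower in P4 than in E16. Of the 10 members, 7 had at least 30 UMIs in this class. All 7 had P4 levels 2-fold or more below E16, against 11.1% of 1173 genes, and none was 2-fold higher, against 12.4%. Of the 7, 6 had fewer than 30 UMIs in P4 and passed the minimum through their E16 counts, so the choice favoured lower P4 levels and the count supports nothing; only Mest passed on its P4 count. For Dlk1, with a ratio of 0.133 (0.0587 to 0.266), and Meg3, with 0.326 (0.128 to 0.733), the difference rested on a single E16 cell described below. The other 3 were Peg3, Ndn and Plagl1, with 4 to 13 UMIs in each library and intervals that include 1. The class had 22 P4 and 10 E16 cells, so these values rest on few cells.

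Igf2 had 202 CPM (118 to 323) in P4 endothelial-like cells and 2500 CPM (2194 to 2837) in E16 endothelial-like cells. The ratio was 0.0807 (0.0462 to 0.132). Single P4 cells ranged from 0 to 996 CPM with a median of 0, and single E16 cells from 333 to 7219 CPM with a median of 1909 CPM. A UMI of Igf2 was found in 6 of the 22 P4 cells and in all 10 E16 cells, and 7 of the 10 E16 cells were above the highest P4 cell. An E16 cell held 88 of the 240 UMIs, and without it the ratio was 0.103 (0.0584 to 0.170). Within E16, the endothelial-like level was also above the mesenchyme-like level of 1372 CPM (1282 to 1466), and the median cell had 1909 CPM in the first class and 1209 CPM in the second. Mest had 3448 CPM (3087 to 3840) in E16 endothelial-like and 1414 CPM (1323 to 1509) in E16 mesenchyme-like cells, with medians over cells of 2972 and 1242 CPM. For H19 the sum was higher in E16 endothelial-like cells but the median cell was lower, at 1200 CPM against 1534 CPM.

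H19 had 320 CPM (211 to 466) in P4 and 2240 CPM (1950 to 2560) in E16, a ratio of 0.143 (0.0922 to 0.214). It was found in 9 of 22 P4 cells and 10 of 10 E16 cells, and 3 E16 cells exceeded the highest P4 cell. A P4 cell held 13 of the 27 H19 UMIs, and without it the ratio was 0.0804 (0.0432 to 0.138). Cdkn1c had 249 CPM (154 to 381) in P4 and 2021 CPM (1747 to 2326) in E16, a ratio of 0.123 (0.0746 to 0.194). A single E16 cell held 90 of the 194 Cdkn1c UMIs, and without it the ratio was 0.186 (0.110 to 0.299). The same cell, of 18452 UMIs, also held the most Igf2 and H19 UMIs in E16, with 68 of the 215 of H19. Another E16 cell, of 20515 UMIs, held the most Grb10 and Mest UMIs. The differences of these 5 genes thus share cells and are not independent. Grb10 had 202 CPM (118 to 323) in P4 and 948 CPM (763 to 1164) in E16, a ratio of 0.213 (0.119 to 0.360). A single E16 cell held 60 of the 91 Grb10 UMIs. Without it E16 had 411 CPM (279 to 583) and the ratio was 0.491 (0.255 to 0.916), so the size of this difference rests on that cell, and the E16 level then overlapped that of mesenchyme-like cells.

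Mest was lower in P4 but still clearly detected in P4 endothelial-like cells, with 1496 CPM (1246 to 1781) in P4 against 3448 CPM (3087 to 3840) in E16, a ratio of 0.434 (0.350 to 0.534). An E16 cell held 139 of the 331 Mest UMIs, and without it the ratio was 0.588 (0.466 to 0.740), short of 2-fold. In P4 it was held by cluster 17 (11 cells, with Fabp4, Gpihbp1 and Plvap among its leading genes), at 2438 CPM (2028 to 2907). The P4 cells of cluster 14 (11 cells, with Cldn5, Vwf and Eln among its leading genes) had 59.9 CPM, from 2 UMIs. Inside cluster 17, with 11 P4 and 8 E16 cells, the Mest ratio was 0.702 (0.565 to 0.868), or 0.993 (0.780 to 1.26) without that E16 cell. There Igf2 had a ratio of 0.0867 (0.0409 to 0.163), or 0.0510 (0.0164 to 0.121) without the P4 cell with 5 of its 10 UMIs, and H19 0.178 (0.103 to 0.289), or 0.0565 (0.0181 to 0.134) without the P4 cell with 13 of its 18 UMIs. In E16, 1 cell held 88 of the 198 Igf2 UMIs and 68 of the 174 H19 UMIs of this cluster. Its levels, 4769 and 3685 CPM, were above those of the cluster, 2268 and 1993 CPM. Both ratios would therefore be nearer 1 without it. Grb10 had 0.226 (0.113 to 0.415), or 0.508 (0.238 to 1.02) without its E16 cell of 60 UMIs, and Cdkn1c had 256 CPM in P4 and 2131 CPM in E16. Of the 186 E16 Cdkn1c UMIs in this cluster, 90 were in 1 cell and 62 in the cell rich in mesenchyme markers described below. The size of the Cdkn1c difference thus rests largely on these cells.

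An E16 endothelial-like cell of 6938 UMIs carried 204 UMIs of mesenchyme markers, 2.94% of its UMIs, where no other cell of the class was above 0.189%. It held 62 of the 77 Dlk1 UMIs, 19 of the 28 Meg3 UMIs and 62 of the 194 Cdkn1c UMIs of the class, and a doublet caller marked it. Without it 5 of the members had at least 30 UMIs, again mostly through E16, and all 5 were 2-fold or more below E16 in P4. The ratios without it were 0.0813 (0.0465 to 0.133) for Igf2, 0.150 (0.0965 to 0.226) for H19, 0.168 (0.101 to 0.268) for Cdkn1c, 0.209 (0.116 to 0.354) for Grb10 and 0.420 (0.339 to 0.518) for Mest. When the E16 cell with most UMIs of the member was left out as well, Cdkn1c had 0.419 (0.236 to 0.724), while Grb10 had 0.532 (0.271 to 1.02) and Mest 0.576 (0.455 to 0.728), neither 2-fold. Igf2 then had 0.107 (0.0606 to 0.178) and H19 0.185 (0.117 to 0.283). Without the cell rich in mesenchyme markers alone, Dlk1 had 0.634 (0.245 to 1.55) from 24 UMIs and Meg3 0.940 (0.315 to 2.74) from 17 UMIs, under the minimum of 30, so neither could be called lower.

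Without that cell the 14 mesenchyme markers summed to 878 CPM in P4 and 573 CPM in E16 endothelial-like cells. The same markers summed to 47173 CPM in P4 and 18968 CPM in E16 mesenchyme-like cells. With that cell they summed to 2656 CPM in E16, where Twist1, Twist2 and Fbln1 were at 0. Erythroid markers summed to 2386 CPM in P4 and 17668 CPM in E16 endothelial-like cells. The part of either marker group in the result was not tested.

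**Figure D5:**
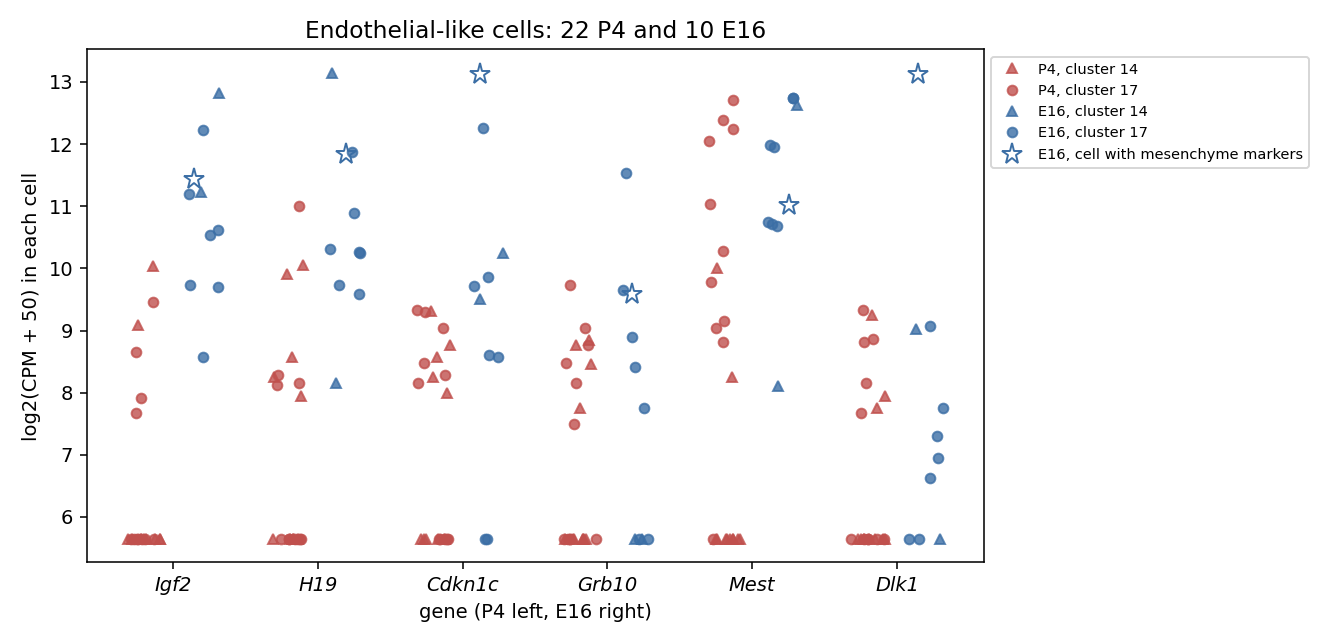
Level of 6 members in each endothelial-like cell as log2(CPM + 50), with 22 P4 cells (red, left) and 10 E16 cells (blue, right), triangles for cluster 14, circles for cluster 17 and a star for the E16 cell with many mesenchyme marker UMIs. Igf2 and H19 have UMIs in all 10 E16 cells and are at 0 in most P4 cells, and the highest E16 value of Dlk1 is the starred cell.

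Epithelial-like cells had low levels of most members. Apart from Meg3 in E16, these were below the levels in the left-out barcodes, given under the flagged results. Of 8 members with at least 30 UMIs, 4 were at least 2-fold lower in P4 (Meg3, Grb10, Cdkn1c and Mest), against 28.9% of 4514 genes, and 1 was at least 2-fold higher (Dlk1), against 7.67%. The median log2 ratio over the 4514 genes was -0.54, so most genes of this class had lower P4 values. Of the 8, Grb10, Ndn and Mest had fewer than 30 UMIs in P4 and passed through their E16 counts. The 2 libraries filled different epithelial clusters: P4 cells lay in clusters 0 (40 cells, led by the secretory genes Dcpp3, Dcpp2 and Dcpp1) and 9 (33 cells), and E16 cells in cluster 2 (31 cells) and cluster 9 (8 cells).

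Cdkn1c had 342 CPM (300 to 389) in P4 epithelial-like cells and 1219 CPM (1122 to 1323) in E16 epithelial-like cells, a ratio of 0.281 (0.240 to 0.327). Inside cluster 9 it had 274 CPM in P4 and 300 CPM in E16, a ratio of 0.912 (0.508 to 1.78), so the class difference was not seen there. Meg3 had 103 CPM (80.7 to 130) in P4 and 431 CPM (373 to 494) in E16, a ratio of 0.240 (0.180 to 0.315). Inside cluster 9 Meg3 had 19 UMIs in P4 and 7 in E16, under the minimum of 30.

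Grb10 was low in P4 epithelial-like cells. It had 8.59 CPM (3.15 to 18.7) from 6 UMIs in 76 P4 cells and 146 CPM (114 to 185) from 69 UMIs in 39 E16 cells, a ratio of 0.0587 (0.0208 to 0.134). Inside cluster 9 it had 2 UMIs in 33 P4 cells and 7 UMIs in 8 E16 cells, too few for a ratio. Mest had 18.6 CPM in P4 and 82.7 CPM in E16, a ratio of 0.225 (0.110 to 0.431), where erythroid-like cells had 14.5 and 40.0 CPM.

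Dlk1 had 162 CPM (133 to 195) in P4 and 55.1 CPM (36.0 to 80.8) in E16 epithelial-like cells, a ratio of 2.94 (1.90 to 4.69). A P4 cell of 9361 UMIs with 350 mesenchyme marker UMIs held 34 of the 113 Dlk1 UMIs, and it was not marked by the doublet caller. Without it the Dlk1 ratio was 2.08 (1.32 to 3.38), and at Leiden resolution 1.5 it was 1.97, under 2-fold. Without that cell Ndn had 0.418 (0.234 to 0.731) and joined the members at least 2-fold lower, and Igf2 was left with 5 UMIs in P4 and 7 in E16. Erythroid-like cells had 43.4 CPM of Dlk1 in P4 and 40.0 CPM in E16. Igf2 and Plagl1 had fewer than 30 UMIs in epithelial-like cells.

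In the unnamed cluster 6 only Dlk1 and Cdkn1c had at least 30 UMIs. Cdkn1c had 2312 CPM in P4 and 1184 CPM in E16, a ratio of 1.95 (1.499 to 2.53), and Dlk1 had 364 and 142 CPM, a ratio of 2.57 (1.22 to 5.25). A P4 cell held 8 of the 14 Dlk1 UMIs and an E16 cell 15 of the 22. The Dlk1 ratio was 1.16 (0.387 to 2.96) without the P4 cell and 7.33 (2.77 to 21.5) without the E16 cell, so it rests on single cells. None of the members was at least 2-fold lower, against 19% of 1176 genes, and Dlk1 was at least 2-fold higher, against 8.5%. Smooth muscle markers summed to 14495 CPM in P4 and 1763 CPM in E16 in this cluster, so its cells were not alike at the 2 stages, and their part in the result was not tested.

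The genes most like a member were sought over 7 sums, those of a named class and library with at least 20 cells, by the Pearson correlation of log2(CPM + 10). The gene most like Igf2 was H19 (0.993), followed by Aebp1 (0.992). For Dlk1 it was Lum (0.993), for Meg3 Ptn (0.994), and for Cdkn1c it was Meg3 (0.989). Ndn was most like Gas1 (0.990), and Mest was most like Ndufa4l2 (0.982) and Id1 (0.982). The remaining nearest genes were Tmem119 for H19 (0.995), Mars for Peg3 (0.993), Tril for Grb10 (0.984) and Slc43a3 for Plagl1 (0.993). With 7 points that mostly separate mesenchyme from other cells, many genes reach such values.

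Of 38 other imprinted genes in the files, 11 had at least 30 UMIs in mesenchyme-like cells. Of these, 3 (Kcnq1ot1, Peg10 and Airn, named after their values were seen) had P4 levels 2-fold or more below E16, against 13.6% of 5711 genes. None was 2-fold or more above, against 6.93%. The median log2 ratio of the 11 was -0.22, close to that of the members. Gnas, which encodes a G protein subunit, had 2395 CPM in P4 and 2072 CPM in E16, a ratio of 1.16 (1.08 to 1.24). Sgce, which encodes a sarcoglycan, had 257 and 139 CPM, a ratio of 1.85 (1.43 to 2.40), and the antisense RNA Kcnq1ot1 had 112 and 251 CPM, a ratio of 0.447 (0.342 to 0.582). In endothelial-like cells Gnas, the 1 other imprinted gene with at least 30 UMIs, had 3774 CPM in P4 and 5625 CPM in E16, a ratio of 0.671 (0.582 to 0.772). In epithelial-like cells 4 of 6 such genes had P4 levels 2-fold or more below E16, against 28.9% of 4514 genes, and none above, against 7.67%. With so few genes these counts are descriptions. The same shares of each class are the background of the gene lists below, with 11.1% lower and 12.4% higher in endothelial-like cells.

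Of 25 genes of the IGF pathway, 17 were measured in mesenchyme-like cells, of which 3 were at least 2-fold lower and 4 at least 2-fold higher in P4, with a median log2 ratio of -0.12. The binding protein genes Igfbp7 and Igfbp4 had ratios of 1.91 (1.77 to 2.07) and 1.65 (1.46 to 1.88), and Igfbp3 had 0.923 (0.810 to 1.05). In endothelial-like cells 1 of 4 was at least 2-fold lower and none higher, with Igfbp7 at 3288 CPM in P4 and 1865 CPM in E16.

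In mesenchyme-like cells all 25 G2/M genes were measured and 24 of them were at least 2-fold lower in P4, with a median log2 ratio of -1.81. In endothelial-like cells 2 of 7 and in epithelial-like cells 8 of 23 were. Mesenchyme-like cells had 156 CPM of Cdk1 in P4 and 429 CPM in E16, Ube2c 128 and 387 CPM, and Birc5 103 and 363 CPM. Of 22 genes of growth arrest and cyclins in the files 15 were measured, of which 5 were at least 2-fold lower and 1 higher; Ccnd3 had a ratio of 1.14 (1.01 to 1.29), Cdk4 0.838 (0.735 to 0.956) and Btg2 0.810 (0.689 to 0.953). Of 21 Notch and preadipocyte genes 6 were measured, of which 2 were at least 2-fold lower and 1 higher, the last being Lpl, the lipoprotein lipase gene, with 764 CPM in P4 and 92.4 CPM in E16. Cebpb had a ratio of 1.04 (0.932 to 1.17) and Ebf1 1.59 (1.35 to 1.89).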

How the data were processed

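The authors deposited 1 table of raw UMI counts per gene and barcode for each stage; Cell Ranger and mm10 are named, per the submitters' processing notes, with no version, annotation or strand setting; the labels name both 10x and Drop-seq. Barcodes with at least 200 genes were kept. Counts were scaled to 10000, log-transformed, and clustered with scanpy 1.11.5 (2000 variable genes without the 48 imprinted genes, 20 components, 15 neighbours, Leiden resolution 1), with both libraries together and no integration. Clusters were classed by their standardized marker expression, and a cluster stayed unnamed when markers of another class led it as often; that tie rule was set after cluster 6 was seen. Scrublet called 1 doublet in P4 and 2 in E16, which were kept. UMIs were summed by class; intervals are exact Poisson, Clopper-Pearson and conditional binomial at 95%. Members are counted as lower or higher only with 30 UMIs over both libraries. The ratio and its interval were tested on simulated data.

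The members, gene lists and tests were chosen with earlier results of these data known, and the stage comparisons in endothelial-like cells and cluster 6 were added after seeing the data. Named list genes are the 3 with most UMIs in mesenchyme-like cells. Alternatives were 500 genes per barcode, other clusterings, totals, cell weights, single cells left out and UMI minimums. Promoters and microRNAs came from RefSeq tables for GRCm38.p6, and H19 and Cdkn1c have no window there.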

Additional observations from a re-analysis of the deposited data

Results flagged for a closer look

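Some members had stage ratios on opposite sides of 1 in different classes, each with a counting interval that excludes 1; with 1 library for each stage these differences were not tested. H19 was higher in P4 mesenchyme-like cells, with a P4 over E16 ratio of 1.59, and lower in P4 endothelial-like cells, with 0.143. Dlk1 had 2.94 in epithelial-like cells and 2.57 in cluster 6, against 0.133 in endothelial-like cells, and the last value was 0.634 without the E16 cell that carried mesenchyme markers. The cluster 6 value was 1.16 without the P4 cell with most Dlk1 and 7.33 without the E16 cell with most. Cdkn1c had 1.95 in cluster 6, against 0.811 in mesenchyme-like, 0.281 in epithelial-like and 0.123 in endothelial-like cells. Under other settings cluster 6 may fall within the epithelial-like class, whose Cdkn1c ratio lay between 0.230 and 0.397 over the alternatives. Ndn had 1.14 in mesenchyme-like and 0.544 in epithelial-like cells. Its intervals included 1 without the P4 mesenchyme-like cell (1.09) or the E16 epithelial-like cell (0.596) with most Ndn.

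The barcodes left out for having fewer than 200 genes also held member RNA: 190 UMIs of the 10 genes in P4 and 156 UMIs in E16, above the 3 counts that a count of 0 allows. Scaled to their UMIs without haemoglobin, they had 527 CPM of Igf2 in P4 and 617 CPM in E16. Dlk1 had 965 and 793 CPM, Cdkn1c 1755 and 2336 CPM, Mest 468 and 838 CPM and Grb10 117 and 353 CPM. Every member except Meg3 in E16 was above its epithelial-like level of the same library. In P4, Igf2, H19, Dlk1, Meg3, Peg3, Cdkn1c and Ndn were also above their endothelial-like levels, while Grb10, Mest and Plagl1 were not. For H19 the P4 values were 907 CPM in left-out barcodes and 320 CPM in endothelial-like cells, and for Cdkn1c 1755 and 249 CPM. In E16, Meg3, Peg3, Ndn and Cdkn1c were above their endothelial-like levels, Cdkn1c with overlapping intervals (2336 and 2021 CPM). Igf2 and H19 were below theirs in E16. The part of RNA from other cells in the low class levels was not tested.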

How the results depend on the processing

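In endothelial-like cells the count of members at least 2-fold lower in P4 was 7 and lay between 5 and 8 under the 13 alternatives, all added after seeing the data. In epithelial-like cells it was 4, with 4 or 5 under the alternatives, except 2 with a minimum of 100 UMIs, where 4 members remained to be counted; the count of members at least 2-fold higher there was 1 (Dlk1), but 0 at Leiden resolution 1.5, where Dlk1 had 1.97, and 2 with no minimum. In mesenchyme-like cells it was 1, and 2 with Leiden resolution 0.5, with classes from each cell's markers and with each library clustered alone, where Peg3 (0.455 to 0.476) joined Mest; the cause was not tested. No measured ratio of 2-fold or more turned its direction under an alternative. Over the alternatives the mesenchyme-like ratio of H19 lay between 1.37 and 1.66 and that of Mest between 0.373 and 0.460, and the endothelial-like ratio of Igf2 between 0.0533 and 0.0818, while those of Cdkn1c (0.107 to 0.382), Dlk1 (0.0991 to 0.959) and Meg3 (0.162 to 0.949) moved with single cells. Of the single ratios, 78 of 90 in mesenchyme-like, 98 of 110 in epithelial-like and 97 of 110 in endothelial-like cells stayed inside their counting interval. Thinning to 2 times the depth moved 17 of 20 shares of cells, as more UMIs per cell give more detections. Depth limits Plagl1 and the endothelial-like class, which holds 84251 UMIs in P4 and 95994 in E16. No paired analysis was possible because each stage has 1 library and no test was made.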
